A study of Mus musculus with 10 samples.

Results

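The comparison described here sets primary microglia given vesicles from the serum of sham-operated mice against primary microglia given phosphate-buffered saline (PBS). It takes the 3 libraries labelled sham sEVs and the 4 labelled PBS, 7 of the 10 libraries of the series. It covers the 14806 genes, of 32074 in the deposited table, whose transcript abundance in TPM (length-scaled shares of a library that sum to 1000000) averaged at least 1 over the 10 libraries. All cultures held cortical microglia of CD-1 mouse pups of postnatal day 2 to 4, and all stood for 24 h in DMEM with 10% fetal bovine serum depleted of exosomes. The sham-sEV cultures received 1 µg of small extracellular vesicles (sEVs) per the labels. The PBS cultures received PBS and no vesicles. The other 3 libraries, used in the fit and for values set beside those of the sham sEVs, came from cultures given 1 µg of sEVs of mice with spared nerve injury (SNI), in which part of the sciatic nerve is cut. No group received vesicles of unoperated mice, so what sham surgery adds and what serum vesicles as such do cannot be told apart. The labels number the libraries as biological replicates and say nothing of separate litters, cultures or vesicle preparations, so the p-values measure the spread between these libraries, and they name no batch.

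Microglia are the resident macrophages of the brain. Toll-like receptors on macrophages pass through MyD88 and TRIF to the kinases that free the transcription factor NF-kappaB. That factor binds kB sites and switches on cytokines, chemokines, prostaglandin synthesis and its own inhibitors. Type I interferon acts through STAT and IRF factors on genes with an interferon-stimulated response element (ISRE), whose products restrict viruses and present antigen. Resting microglia express another set of genes, among them receptors such as CX3CR1 and TREM2, lysosomal enzymes and, in culture, the genes of the cell cycle.

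Cultures given sham sEVs differed from PBS cultures at most genes. Ccl5, the chemokine RANTES, averaged 18328 TPM in sham-sEV cultures, against 22.6 TPM in PBS cultures, and Il6, Nos2 and Il12b were present in sham-sEV cultures and near 0 in PBS cultures. Nearly the whole set of interferon-induced antiviral genes was higher, as were class I antigen presentation genes and the genes of endoplasmic reticulum stress. Genes of DNA replication and mitosis, Trem2, Spp1, Cx3cr1 and most lysosomal enzymes were lower. By limma on log2(TPM + 1) with Benjamini-Hochberg adjustment over all genes tested and a threshold of 0.05, 2437 genes (16.5%) were higher with sham sEVs and 7768 (52.5%) lower. At least 2-fold changes on the scale of TPM + 1 numbered 726 higher (4.90%) and 1475 lower (9.96%), and at least 4-fold changes 304 (2.05%) and 332 (2.24%). At least 32-fold changes were 28 higher (0.189%) and 2 lower (0.0135%). "Higher", "lower", "rose" and "fell" below mean called by this test, folds refer to TPM + 1, and errors beside TPM are SD over 3 sham-sEV and 4 PBS libraries.

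The split between directions depended on the scaling. TPM adds up to 1000000 in each library, and in sham-sEV libraries the 10 genes that were highest there held 20.5% ± 0.308 of that sum, against 11.7% ± 0.493 in PBS libraries. Over all genes tested the log2 fold change had a median of -0.25. With median-of-ratios scaling, which sets that median near 0, 4728 genes (31.9%) were higher and 4579 (30.9%) lower, and with quantile normalization 4307 (29.1%) and 4883 (33.0%). Most counts of gene lists are therefore given in TPM and with median-of-ratios scaling, and small falls are read against a background of 52.5% lower. The shares of all genes beside which each list count stands are 16.5% higher and 52.5% lower in TPM. With median-of-ratios scaling they are 31.9% and 30.9%.

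**Figure D1:**
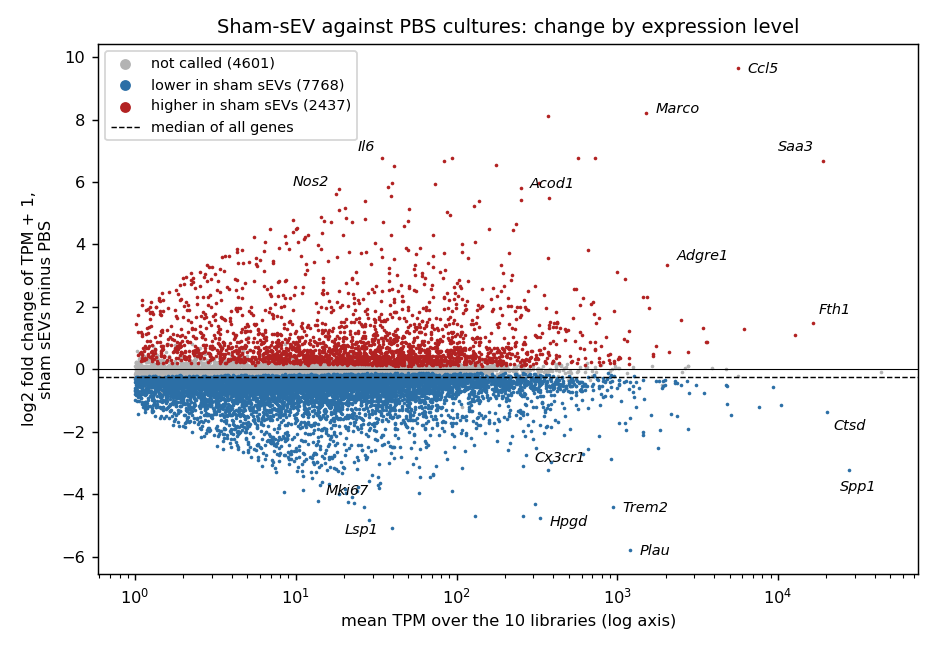
Log2 fold change of TPM + 1, sham sEVs minus PBS, against the mean TPM over the 10 libraries on a log axis, with 1 point per gene tested (14806). Red points are the 2437 genes called higher, blue points the 7768 called lower, and the dashed line is the median of all genes at -0.25. Rises reach further than falls: Ccl5 stands at 9.65 and Plau at -5.79.

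At 2467 genes (16.7%) every sham-sEV library lay above every PBS library, and at 7374 (49.8%) every one lay below. The median over genes of the SD of log2(TPM + 1) was 0.064 among sham-sEV libraries and 0.139 among PBS libraries. Genes at 1 TPM or more numbered 14117 to 14166 per sham-sEV library and 14577 to 14973 per PBS library. Among genes averaging 1 to 5 TPM 11.1% were higher and 51.6% lower, and among the 99 genes at 1000 TPM or more 29.3% were higher and 56.6% lower, so calls were made at every level. Read depth is unknown, since TPM keeps no read totals. Of the 2201 genes called here at least 2-fold in either direction, 2190 are also in the authors' deposited table of changed genes. That table comes from the same series, and its folds for the genes tested here lay within 1% of these, so the overlap is no independent check.

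The cultures carried the markers of microglia in both groups. Summed over the 12 microglial and macrophage markers, expression was 17568 to 17954 TPM in sham-sEV and 15714 to 16429 TPM in PBS libraries. Single markers moved in both directions: 5 were higher and 6 lower. Adgre1, which encodes the macrophage antigen F4/80, had 5213, 4943 and 4739.6 TPM in the sham-sEV libraries, against 427, 485, 489 and 562 TPM in the PBS libraries. Aif1, the cytoskeletal marker IBA1, had 1206 ± 27.8 TPM in sham-sEV and 201 ± 20.1 TPM in PBS cultures. Both groups kept apart for these genes. Tmem119, a marker of microglia within the brain, was low in both, at 5.17 ± 0.515 TPM in sham-sEV and 6.0 ± 1.17 TPM in PBS cultures, and was not called. Markers of border macrophages, which line the vessels and meninges of the brain, summed to 1074 to 1115 TPM in sham-sEV and 544 to 607 TPM in PBS libraries. Of 6 tested 3 were higher and 2 lower, each by at least 2-fold, and their part in the results below was not tested.

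Markers of other brain cells were present at lower levels, and in TPM most of those of astrocytes, oligodendrocytes, endothelium and fibroblasts were lower with sham sEVs. The astrocyte markers summed to 114 to 128 TPM in sham-sEV and 181 to 218 TPM in PBS libraries, with 10 of 11 tested lower (9 with median-of-ratios scaling, and 5 lower and 1 higher with quantile normalization). Gfap, the astrocyte filament, had 9.58 ± 1.71 TPM with sham sEVs against 23.1 ± 2.84 TPM with PBS. The oligodendrocyte markers summed to 428 to 476 TPM in sham-sEV and 597 to 685 TPM in PBS libraries, with 10 of 11 lower (5 with median-of-ratios scaling and 7 with quantile normalization). Of 4 neuronal markers tested 1 was lower, a call lost without any sham-sEV library or without PBS library 2 or 4. With either of the other scalings 1 was higher and 0 lower, and the sums overlapped, at 22.8 to 27.4 TPM in sham-sEV and 23 to 33.4 TPM in PBS libraries. Also lower were 2 of 2 of endothelium and 3 of 3 of fibroblasts and pericytes. In bulk RNA, fewer cells of a type and less RNA per cell cannot be told apart. The part of these cells in the results below was not tested.

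Markers of blood cells were at or near 0 with few exceptions. None of the 12 lymphocyte markers reached the filter, and they summed to at most 1.17 TPM in sham-sEV and 2.30 TPM in PBS libraries. Of 12 monocyte and neutrophil markers 2 were tested, and both, S100a8 and Camp, were higher. S100a8, a subunit of calprotectin, had 32.1 ± 1.06 TPM with sham sEVs against 8.41 ± 1.73 TPM with PBS, while its partner S100a9 had 0.0283 ± 0.0490 TPM with sham sEVs against 0 ± 0 TPM with PBS and the neutrophil markers Ly6g and Mpo had 0.0158 and 0.0113 TPM with sham sEVs and 0 and 0.0117 TPM with PBS. These 3 genes and Alb, serum albumin, are given as defining markers and lay below the filter. Alb had 0.0134 TPM with sham sEVs and 0.00622 TPM with PBS. Of 3 liver markers tested 1 was higher and 2 lower, in TPM and with median-of-ratios scaling. The transferrin gene Trf, which brain cells also express, was lower, at 149 ± 1.76 TPM with sham sEVs against 651 ± 31.4 TPM with PBS.

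Chemokine genes were mostly higher. 8 of 10 CC chemokines tested were higher and 1 lower, with a median log2 fold change of 1.12, and 9 and 1 with median-of-ratios scaling. Ccl5, which draws T cells and monocytes, had 18538, 18987 and 17460.4 TPM in the sham-sEV libraries, against 27.8, 21.7, 13.4 and 27.4 TPM in the PBS libraries. The groups lay far apart, and the difference was 806-fold (log2 9.65 ± 0.205 (SE); limma's adjusted p = 1.2e-11). The monocyte chemoattractants Ccl7, with 178 ± 30.7 TPM in sham-sEV and 15.6 ± 1.63 TPM in PBS cultures, Ccl12 (6.11-fold) and Ccl2 (2.03-fold) also rose. Ccl3, already abundant, had 2057 ± 37.3 TPM with sham sEVs against 881 ± 99.6 TPM with PBS. Ccl6 alone of the tested CC members fell, to 188 TPM with sham sEVs, against 384 TPM with PBS.

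Among CXC and CX3C chemokines, 11 of the 12 members tested were higher and 1 lower (median log2 fold change 2.78; 11 and 1 with median-of-ratios scaling). The ligands of the neutrophil receptor CXCR2 rose together. Cxcl1 had 85.9, 86.2 and 80.7 TPM in the sham-sEV libraries, against 1.99, 2.54, 1.42 and 2.35 TPM in the PBS libraries, and Cxcl2 and Cxcl3 were 13.3-fold and 26.4-fold higher. Cxcl9 and Cxcl10, interferon-induced ligands of the T cell receptor CXCR3, were 7.19-fold and 10.4-fold higher, with 6.80 and 80.8 TPM with sham sEVs and 0.0779 and 6.86 TPM with PBS. Cxcl13, which attracts B cells, had 26.7 ± 3.87 TPM with sham sEVs against 2.15 ± 0.909 TPM with PBS. Cxcl14 was the member that fell, to 27.1 TPM with sham sEVs, against 78.6 TPM with PBS.

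The interleukin-1 genes rose by similar amounts. Il1b had 2255, 2515 and 2254 TPM in the sham-sEV libraries, against 25.2, 18.4, 15.1 and 25.2 TPM in the PBS libraries, and Il1a had 276, 344 and 307 TPM in the sham-sEV libraries, against 1.19, 2.51, 2.05 and 1.77 TPM in the PBS libraries. No library of one group reached into the range of the other, and both genes were 109-fold higher (log2 6.76 ± 0.136 (SE) for Il1a and 6.76 ± 0.240 (SE) for Il1b). Over the interleukin-1 family and the inflammasome, 12 of the 17 members tested were higher and 2 lower (median log2 fold change 0.62; 13 and 2 with median-of-ratios scaling), and 4 were lower when PBS library 1 was left out. Nlrp3, the inflammasome sensor, had 84.6 ± 5.30 TPM in sham-sEV and 37.6 ± 3.17 TPM in PBS cultures, and Casp4, the caspase that senses lipopolysaccharide in the cytosol, had 98.7 ± 3.45 TPM in sham-sEV and 35.6 ± 3.58 TPM in PBS cultures. Il1rl1, the receptor of interleukin-33, and Il1rl2, that of interleukin-36, fell against this majority, Il1rl1 to 0.0977 TPM with sham sEVs, against 5.06 TPM with PBS.

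Il6, the acute-phase cytokine, had 108, 123 and 114 TPM in the sham-sEV libraries, against 0.0449, 0.0505, 0 and 0.173 TPM in the PBS libraries (log2 6.77 ± 0.0790 (SE); limma's adjusted p = 1e-12). It was close to 0 in every PBS library. The interleukin-12 subunit Il12b had 12.5 ± 0.762 TPM with sham sEVs against 0.101 ± 0.145 TPM with PBS, Il27 had 16.4 ± 1.92 TPM with sham sEVs against 1.73 ± 0.386 TPM with PBS, and Ebi3, the partner of Il27, had 178 ± 9.62 TPM with sham sEVs against 35.8 ± 4.41 TPM with PBS. Il10, a cytokine that restrains inflammation, rose with them, at 13.8 ± 0.667 TPM with sham sEVs against 0.0992 ± 0.0774 TPM with PBS. Csf3, the granulocyte growth factor, had 12.7, 13.5 and 9.72 TPM in the sham-sEV libraries and 0, 0.0297, 0.0634 and 0.0680 TPM in the PBS libraries. Within this list of cytokines of the IL6, IL10 and IL12 families and colony-stimulating factors, 7 of the 10 members tested were higher and 2 lower (median log2 fold change 2.48; 7 and 1 with median-of-ratios scaling). Osm and Il16 fell, Il16 to 2.17 TPM with sham sEVs, against 4.20 TPM with PBS.

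TNF ligands and receptors moved in both directions. In this list 8 of the 16 members tested were higher (50.0%) and 7 lower (43.8%), beside 16.5% and 52.5% of all genes tested. The median log2 fold change was 0.31. With median-of-ratios scaling 10 were higher and 5 lower, beside 31.9% and 30.9% of all genes. Tnf had 565, 553 and 514 TPM in the sham-sEV libraries, against 78.1, 76.6, 69.3 and 71.8 TPM in the PBS libraries, a 7.27-fold difference (log2 2.86 ± 0.0580 (SE)). Its receptor Tnfrsf1b had 515 ± 26.6 TPM with sham sEVs against 128 ± 6.63 TPM with PBS. Cd40, which receives help from T cells, was 10.4-fold higher and the death receptor Fas 5.81-fold. The ligand Tnfsf12 (TWEAK) and its receptor Tnfrsf12a both fell, to 10.6 and 19.3 TPM with sham sEVs, against 64.4 and 46.1 TPM with PBS.

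**Figure D2:**
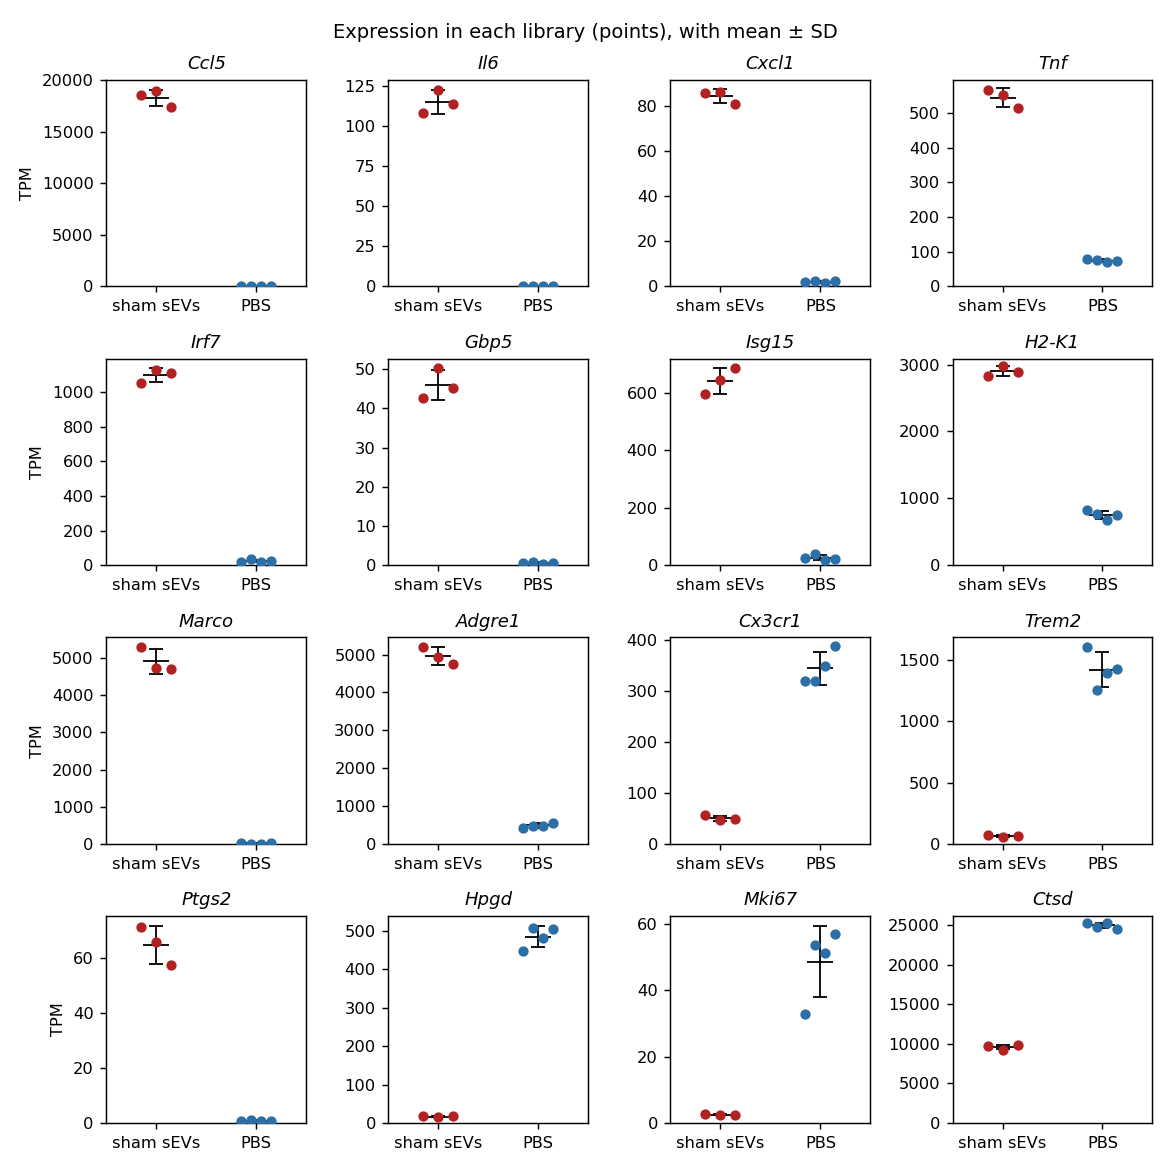
TPM of 16 genes in each library, with the 3 sham-sEV libraries in red on the left and the 4 PBS libraries in blue on the right of each panel, and black bars for the mean and SD. In all 16 panels the groups do not overlap. Mki67 spans 32.8 to 56.9 TPM among PBS libraries, above the 2.26 to 2.71 TPM of the sham-sEV libraries.

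Receptors for chemoattractants changed with opposite signs. The formyl peptide receptors, which detect bacterial and mitochondrial peptides, rose: Fpr1 had 548, 548 and 544 TPM in the sham-sEV libraries, against 5.54, 4.71, 3.62 and 6.13 TPM in the PBS libraries, and Fpr2 was 42.3-fold higher. Cx3cr1, the fractalkine receptor by which microglia read neurons, had 56.5, 46.8 and 49.5 TPM in the sham-sEV libraries, against 321, 320, 351 and 389 TPM in the PBS libraries. It was 6.66-fold lower (log2 -2.74 ± 0.0800 (SE); limma's adjusted p = 1.1e-10). Cxcr4 fell to 12.1 TPM with sham sEVs, against 74.5 TPM with PBS, and Cxcr3 to 0.0758 TPM, against 5.33 TPM with PBS. In all, 6 of the 12 members tested were higher (50.0%) and 4 lower (33.3%), beside 16.5% and 52.5% of all genes. The median log2 fold change was 0.36, and with median-of-ratios scaling 8 were higher and 4 lower.

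Of the Toll-like receptors and their adaptors, 14 of the 24 members tested were higher and 6 lower (median log2 fold change 0.53; 17 and 5 with median-of-ratios scaling). Tlr1, the partner of TLR2 for bacterial lipopeptides, had 204 ± 6.98 TPM in sham-sEV and 22.7 ± 3.51 TPM in PBS cultures. Tlr4, the receptor of lipopolysaccharide, fell to 17.9 TPM with sham sEVs, against 28.0 TPM with PBS, whereas Ly96, its coreceptor MD-2, rose 2.42-fold. Cd14, which passes lipopolysaccharide to that pair, had 2647 ± 25.5 TPM in sham-sEV and 2600.3 ± 58.6 TPM in PBS cultures and was not called. Irak3, a kinase-like protein that blocks signalling from these receptors, rose most in the list, 19.8-fold, at 214 ± 9.07 TPM with sham sEVs against 9.86 ± 0.924 TPM with PBS. Cd180 and Tlr13 fell to 180.3 and 71.1 TPM with sham sEVs, against 381 and 219.8 TPM with PBS.

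The NF-kappaB list of subunits, kinases and inhibitors held 17 of 25 tested members higher and 5 lower, with a median log2 fold change of 0.88, and 18 and 0 with median-of-ratios scaling. Without sham-sEV library 1, 2 or 3 the lower members numbered 2, 3 and 2. Its inhibitors and adaptors stood at the top. Nfkbia, which encodes the inhibitor IkB-alpha and is itself an NF-kappaB target, had 478, 478 and 443 TPM in the sham-sEV libraries, against 127, 103, 98.5 and 125 TPM in the PBS libraries. Nfkbiz, a nuclear cofactor needed for Il6 and Lcn2 expression, had 191 ± 12.4 TPM with sham sEVs against 14.4 ± 0.968 TPM with PBS, and Bcl3 and Tnip1 were 4.85-fold and 3.15-fold higher. Traf1, an adaptor of TNF receptors, had 132, 136 and 122 TPM in the sham-sEV libraries, against 1.20, 1.06, 0.812 and 1.37 TPM in the PBS libraries. The subunit Rela differed little, at 77.2 ± 0.342 TPM in sham-sEV and 90.4 ± 9.61 TPM in PBS cultures, a difference of -0.22 on the log2 scale that turned to 0.06 with median-of-ratios scaling and was not called without sham-sEV library 1 or 3 (-0.22 each).

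Feedback inhibitors of cytokine signalling moved in both directions. Socs3, which blocks the interleukin-6 receptor, had 154, 170.5 and 157 TPM in the sham-sEV libraries, against 3.66, 3.74, 3.15 and 3.91 TPM in the PBS libraries, 35.0-fold higher (log2 5.13 ± 0.0790 (SE)). Socs1 was 4.67-fold higher and Usp18, which cuts ISG15 from proteins and damps interferon signalling, 17.0-fold, at 339 ± 17.2 TPM in sham-sEV and 19.9 ± 7.52 TPM in PBS cultures. In the whole list of inhibitors 6 of the 12 members tested were higher (50.0%) and 5 lower (41.7%), beside 16.5% and 52.5% of all genes. The median log2 fold change was 0.13, and with median-of-ratios scaling 6 were higher and 2 lower. Of 22 early-response factors 7 were higher (31.8%) and 12 lower (54.5%) in TPM, the lower share near the 52.5% of all genes, and 9 and 8 with median-of-ratios scaling. Batf, a partner of JUN and the IRF factors, rose to 141 TPM with sham sEVs, against 8.59 TPM with PBS, while Egr1 and Egr2 fell 2.39-fold and 3.43-fold. Of the dual-specificity phosphatases, which switch off MAP kinases, Dusp2 rose 18.9-fold and Dusp4 fell 5.56-fold.

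Interferon-induced genes were higher almost throughout. Of the antiviral effectors, 30 of 31 tested were higher and 0 lower, with a median log2 fold change of 2.89, beside 16.5% higher and a median of -0.25 over all genes. The member not called was Ifitm1. Isg15, a ubiquitin-like protein, had 596, 643 and 685 TPM in the sham-sEV libraries, against 24.5, 38.2, 18.8 and 20.3 TPM in the PBS libraries, and no library of one group came near the other. Ifit1, which binds foreign RNA caps, was 32.7-fold higher, at 246 ± 17.1 TPM with sham sEVs against 6.97 ± 3.47 TPM with PBS. Oas3, a sensor of double-stranded RNA, was 16.6-fold higher, and Oasl1, a relative that limits Irf7 translation in mice, had 57.3 ± 5.41 TPM with sham sEVs against 0.179 ± 0.105 TPM with PBS. Reads of Ifit3 and its near-identical copy Ifit3b may be divided between them, so their separate values are uncertain.

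All 18 guanylate-binding proteins and immunity-related GTPases tested were higher, by at least 2-fold each, with a median log2 fold change of 2.66. These GTPases attack the vacuoles of intracellular microbes and are induced mainly by interferon-gamma and type I interferon. Gbp5 had 42.7, 50.2 and 45.3 TPM in the sham-sEV libraries, against 0.543, 0.840, 0.427 and 0.611 TPM in the PBS libraries, and Gbp2 had 113 ± 8.94 TPM with sham sEVs against 4.81 ± 0.978 TPM with PBS. Gbp3, Gbp7, Gbp6 and Gbp10, which resemble each other in sequence and may share reads, ranged from 14.6-fold to 19.9-fold higher. The immunity genes that sense foreign nucleic acid rose with them: 13 of 18 were higher and 4 lower. Zbp1, which binds left-handed nucleic acid, was 30.8-fold higher, and the RNA sensors Ddx58 (RIG-I) and Dhx58 6.64-fold and 7.67-fold. Sting1, the adaptor for DNA sensing, fell to 27.1 TPM with sham sEVs, against 46.8 TPM with PBS.

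The factors that relay interferon split. Irf7, the amplifier of the type I response, had 1054, 1128 and 1112 TPM in the sham-sEV libraries, against 19.6, 35.4, 19.7 and 22.2 TPM in the PBS libraries, 44.8-fold higher (log2 5.48 ± 0.170 (SE); limma's adjusted p = 1.7e-10). Stat2 was 3.93-fold higher and the kinase Jak2 5.29-fold. The receptor chains Ifnar1 and Ifngr1 fell, to 56.8 and 84.4 TPM with sham sEVs, against 79.0 and 152 TPM with PBS, and so did Irf8, a factor on which microglia depend, at 86.4 ± 3.06 TPM with sham sEVs against 162 ± 7.19 TPM with PBS. Over the list 11 of the 21 members tested were higher (52.4%) and 8 lower (38.1%), beside 16.5% and 52.5% of all genes. The median log2 fold change was 0.23, and with median-of-ratios scaling 14 were higher and 4 lower.

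**Figure D3:**
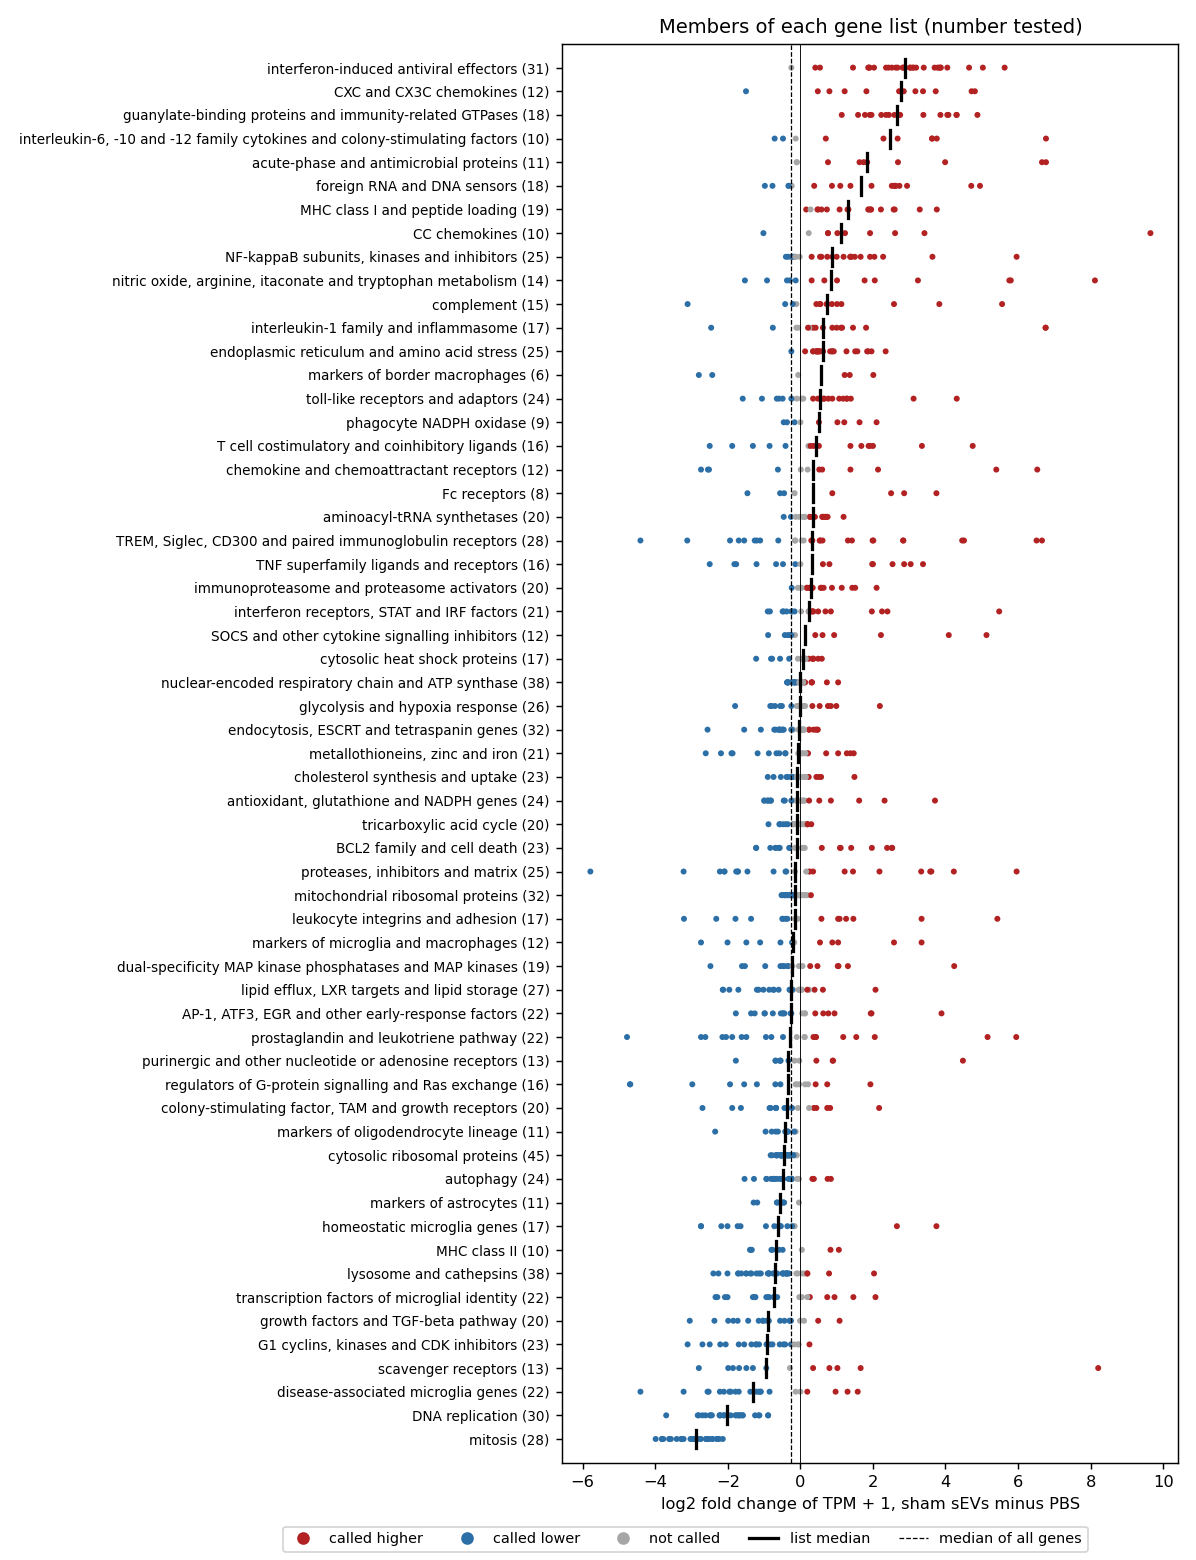
Log2 fold change of TPM + 1, sham sEVs minus PBS, for each tested member of the 59 gene lists with at least 5 tested members, 1 row per list with the number tested, ordered by the list median (black bar). Red points were called higher, blue lower and grey not called, and the dashed line is the median of all genes. Antiviral effectors stand at the top with a median of 2.89 and mitosis at the bottom with -2.88.

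Genes of antigen presentation by class I rose, and most of those of class II were lower. Of class I and peptide-loading genes 18 of 19 were higher and 0 lower, with a median log2 fold change of 1.32. B2m, the invariant light chain, had 8758, 9243 and 9456 TPM in the sham-sEV libraries, against 3698, 4276, 3644 and 3304 TPM in the PBS libraries. H2-K1 and H2-D1, the classical heavy chains, had 2901 and 5336 TPM with sham sEVs and 754 and 2134 TPM with PBS, and the non-classical H2-T24 was 13.6-fold higher. These heavy-chain genes are near-identical copies, so how reads were divided among them is uncertain. The immunoproteasome, which cuts peptides for class I, rose in Psmb8 (2.84-fold), Psmb9 (2.21-fold) and the activator Psme2 (4.29-fold). Over the proteasome list 16 of the 20 members tested were higher and 1 lower (median log2 fold change 0.30; 19 and 0 with median-of-ratios scaling).

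Most class II genes were lower: 2 of 10 were higher and 7 lower, beside 16.5% and 52.5% of all genes tested. The counts were 3 and 7 with median-of-ratios scaling, beside 31.9% and 30.9% of all genes, and 2 and 8 with quantile normalization. H2-DMb1 and H2-DMb2, which edit class II peptides, fell 2.62-fold and 2.54-fold. The invariant chain Cd74 was higher, at 59.3 ± 2.75 TPM with sham sEVs against 33.1 ± 2.95 TPM with PBS. Ligands read by T cells included the checkpoint ligand Cd274 (PD-L1), which had 146, 153 and 144 TPM in the sham-sEV libraries, against 11.8, 16.0, 13.4 and 13.6 TPM in the PBS libraries, and the adhesion ligand Icam1, 3.68-fold higher. Slamf7 rose 26.9-fold, while Havcr2 (TIM-3) and Cd83 fell 5.64-fold and 3.67-fold. In this list 10 of the 16 members tested were higher and 5 lower (median log2 fold change 0.44; 11 and 4 with median-of-ratios scaling).

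Surface receptors moved in both directions. The scavenger receptor Marco, which binds bacteria and particles, had 5284, 4731 and 4694 TPM in the sham-sEV libraries, against 16.0, 12.3, 12.9 and 22.9 TPM in the PBS libraries, 296-fold higher (log2 8.21 ± 0.171 (SE)). In the same list Mrc1, the mannose receptor, fell 6.95-fold, Stab1 3.63-fold and Lrp1 3.22-fold. In all 5 of 13 were higher (38.5%) and 7 lower (53.8%), the lower share near the 52.5% of all genes, of which 16.5% were higher. The list counts were the same with median-of-ratios scaling, by which 31.9% of all genes were higher and 30.9% lower. Trem2, the lipid receptor of microglia that survey damage, had 72.7, 58.2 and 66.7 TPM in the sham-sEV libraries, against 1608, 1257, 1395 and 1428 TPM in the PBS libraries. It was 21.3-fold lower (log2 -4.41 ± 0.0860 (SE); limma's adjusted p = 8e-12), and its signalling partner Tyrobp fell to 2710.2 TPM with sham sEVs, against 5859 TPM with PBS. Siglece, an inhibitory receptor of sialic acid, and Cd300e rose 101-fold and 91.3-fold, Clec4e (Mincle) 22.7-fold, and Cd300a fell 8.69-fold.

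Activating Fc receptors split. Fcgr1 and Fcgr4, which bind immunoglobulin G, had 387 and 241 TPM with sham sEVs and 67.6 and 32.5 TPM with PBS, and Fcgr3 fell to 114 TPM with sham sEVs, against 316 TPM with PBS. Among integrins, Itgal (the LFA-1 chain) was 43.0-fold higher, at 776 ± 46.6 TPM with sham sEVs against 17.2 ± 2.30 TPM with PBS, and Itgam 2.05-fold. Itgb3, a receptor of vitronectin and of Spp1, fell 9.25-fold and Itgax (CD11c) 3.46-fold. Adora2a, the adenosine receptor that dampens leukocytes, had 23.3, 24.3 and 20.5 TPM in the sham-sEV libraries, against 0.0695, 0.0586, 0.104 and 0.0223 TPM in the PBS libraries. Entpd1 (CD39), which breaks down extracellular ATP, fell 3.44-fold.

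Secreted defence proteins took a large share of the messenger RNA. Saa3, an acute-phase serum amyloid made by macrophages, had 63703, 60327 and 59101 TPM in the sham-sEV libraries, against 753, 589, 475 and 631 TPM in the PBS libraries. It was the highest gene of all 3 sham-sEV libraries, at 6.10% ± 0.238 of the sum of TPM, against 0.0612% ± 0.0115 in PBS libraries. Reads shared with other serum amyloid genes make its exact level uncertain. Lcn2, which withholds iron from bacteria, had 1860 ± 111 TPM with sham sEVs against 17.2 ± 7.13 TPM with PBS, and Hp, haptoglobin, was 15.8-fold higher. In the acute-phase and antimicrobial list 9 of the 11 members tested were higher and 0 lower in TPM, with a median log2 fold change of 1.83. With median-of-ratios scaling 10 were higher and 0 lower, and with quantile normalization 9 were higher and 2 lower. In TPM 1 was lower when PBS library 1 was left out. Lyz2, lysozyme, remained among the most abundant genes of both groups, at 39605 ± 986 TPM in sham-sEV and 42352 ± 1264 TPM in PBS cultures, and was not called. Its groups did not overlap in TPM, with 3.85% to 4.04% of the sum in sham-sEV libraries and 4.11% to 4.38% in PBS libraries.

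Nitric oxide and itaconate genes rose. Nos2, the inducible nitric oxide synthase, had 59.3, 67.6 and 57.3 TPM in the sham-sEV libraries, against 0.0716, 0.174, 0.0858 and 0.276 TPM in the PBS libraries, and Acod1, which makes itaconate, had 699, 847 and 812 TPM in the sham-sEV libraries, against 12.5, 16.4, 10.0 and 14.1 TPM in the PBS libraries. All 3 sham-sEV libraries lay above all PBS libraries for both. Slc13a3, a transporter of dicarboxylates in the kidney, was 278-fold higher (log2 8.12 ± 0.206 (SE)), at 1187 ± 105 TPM with sham sEVs against 3.44 ± 1.55 TPM with PBS. The arginine importer Slc7a2 and Ass1, which remakes arginine, were 9.47-fold and 4.14-fold higher, and Gch1, which starts the synthesis of the cofactor of nitric oxide synthase, 3.40-fold. Odc1, which draws ornithine into polyamines, fell 2.90-fold. Of the list's 14 members 9 were higher and 5 lower, 10 and 2 with median-of-ratios scaling.

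Prostaglandin and leukotriene genes moved in both directions, 8 of 22 higher (36.4%) and 11 lower (50.0%), beside 16.5% and 52.5% of all genes tested, and 10 and 11 with median-of-ratios scaling. Ptgs2 (COX-2) had 71.3, 65.9 and 57.7 TPM in the sham-sEV libraries, against 0.747, 1.14, 0.841 and 0.680 TPM in the PBS libraries, and Ptges, the synthase that follows it, had 241, 254 and 217 TPM in the sham-sEV libraries, against 2.59, 2.97, 2.54 and 3.32 TPM in the PBS libraries. Hpgd, which inactivates prostaglandins, had 17.5, 15.1 and 17.4 TPM in the sham-sEV libraries, against 448, 509, 481 and 505 TPM in the PBS libraries. The groups did not overlap for any of them, and Hpgd was 27.5-fold lower (log2 -4.78 ± 0.0680 (SE)). Alox5, Alox5ap and Ltc4s, which make leukotrienes, fell 6.14-fold, 4.45-fold and 6.69-fold. The prostaglandin receptor Ptger2 rose 4.16-fold.

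Of the 15 complement genes tested 11 were higher, 3 lower and 1 not called (median log2 fold change 0.72; 11 and 1 with median-of-ratios scaling). Among the higher ones Cfb, the alternative pathway's protease, had 125 ± 4.48 TPM with sham sEVs against 1.69 ± 0.315 TPM with PBS, C3 1624 ± 74.5 TPM with sham sEVs against 114 ± 20.8 TPM with PBS and Cfp, properdin, 1221 ± 31.7 TPM with sham sEVs against 204 ± 5.90 TPM with PBS. Proteases split: Mmp9, the gelatinase, had 1128, 1076 and 918 TPM in the sham-sEV libraries, against 16.0, 16.7, 13.4 and 16.8 TPM in the PBS libraries, and Mmp13 and Mmp14 rose 10.1-fold and 12.2-fold. Plau, urokinase, had 34.7, 33.4 and 36.4 TPM in the sham-sEV libraries, against 1838, 2123, 2122 and 1842 TPM in the PBS libraries, the deepest fall among genes averaging at least 2 TPM with groups that did not overlap, 55.2-fold (log2 -5.79 ± 0.104 (SE); limma's adjusted p = 5.9e-12). Its inhibitor Serpinb2 rose, with 18.2 ± 1.62 TPM with sham sEVs against 0.0226 ± 0.0152 TPM with PBS. In this list 10 of 25 were higher (40.0%) and 12 lower (48.0%), the lower share near the 52.5% of all genes, of which 16.5% were higher. With median-of-ratios scaling 12 were higher and 10 lower, beside 31.9% and 30.9% of all genes.

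Genes that mark homeostatic microglia were mostly lower, 13 of 17 against 2 higher (11 and 2 with median-of-ratios scaling). Gpr34, a receptor of lysophospholipids, fell to 0.0477 TPM with sham sEVs, against 3.98 TPM with PBS. Gpr84, a fatty acid receptor induced in inflammation, and Fcrls rose against that majority, 6.33-fold and 13.5-fold. Of identity factors 14 of 22 were lower (63.6%) and 5 higher (22.7%), beside 52.5% and 16.5% of all genes tested. With median-of-ratios scaling 14 were lower and 8 higher. Cebpa fell 4.88-fold, Spi1 (PU.1), which sets macrophage fate, rose 1.20-fold, and Nr1h3 (LXR-alpha) rose 4.20-fold.

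The disease-associated genes that microglia raise around plaques and damage were lower too. 16 of 22 were lower and 4 higher, with a median log2 fold change of -1.30. Spp1, osteopontin, had 4203, 3908 and 4492 TPM in the sham-sEV libraries, against 36122, 47855, 38055 and 35184 TPM in the PBS libraries, and PBS library 2 stood above the other PBS libraries. Lgals3 and Cd9 fell 5.76-fold and 5.92-fold, and Apoe, the lipid carrier, had 5888 ± 348 TPM with sham sEVs against 13217 ± 2525 TPM with PBS. Cd52 and Fabp5 rose 2.99-fold and 1.96-fold.

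Growth factors and the TGF-beta pathway, on which microglial identity depends, held 16 lower (80.0%) and 2 higher (10.0%) of 20. With median-of-ratios scaling 13 were lower and 4 higher. Igf1 had 50.7, 49.3 and 55.7 TPM in the sham-sEV libraries, against 219.8, 304, 299.9 and 273 TPM in the PBS libraries, and Pdgfb fell 8.30-fold. Tgfbr1, the signalling receptor, fell 3.31-fold, and Skil, an inhibitor of the pathway's SMAD factors, rose 2.12-fold. Gas6 and Pros1, the bridging ligands of the TAM receptors that clear dead cells, fell 6.50-fold and 3.12-fold. Of those receptors Axl fell to 32.2 TPM with sham sEVs, against 58.8 TPM with PBS, and Mertk rose to 53.9 TPM with sham sEVs, against 30.4 TPM with PBS.

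Every tested gene of the DNA replication and mitosis lists was lower with sham sEVs, 30 of 30 and 28 of 28, with medians of -2.01 and -2.88, under the deposited, median-of-ratios and quantile scalings. Mki67, the proliferation antigen, had 2.71, 2.47 and 2.26 TPM in the sham-sEV libraries, against 32.8, 53.5, 51.2 and 56.9 TPM in the PBS libraries. PBS library 1 was the lowest of its group and still above all sham-sEV libraries. Rrm2, which makes deoxynucleotides, was 13-fold lower, Mcm5 of the replicative helicase 6.96-fold, and Ccnb2 and Kif23, which drive mitosis and cytokinesis, 13.7-fold and 15.9-fold. Ccnd1, the cyclin that starts the cycle, had 41.6, 40.5 and 42.0 TPM in the sham-sEV libraries, against 305, 399.8, 392 and 370 TPM in the PBS libraries. Of 23 G1 regulators 19 were lower and 1, Ccnd3, higher.

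Genes of endoplasmic reticulum and amino acid stress rose with near uniformity, 24 of 25, by a median log2 fold change of 0.62. Asns, asparagine synthetase, had 118, 125 and 113 TPM in the sham-sEV libraries, against 29.0, 34.0, 37.0 and 30.4 TPM in the PBS libraries. Chac1 and Trib3, both targets of the factor ATF4, were 5.11-fold and 3.88-fold higher, and Ddit3 (CHOP) 2.96-fold. The exception was Ddit4, at 5.14 ± 0.292 TPM with sham sEVs against 6.37 ± 0.926 TPM with PBS, whose call was lost when any library other than PBS library 2 was left out (log2 -0.29 to -0.20) and whose sign turned with quantile normalization (0.08). Aminoacyl-tRNA synthetases were higher in 13 of 20 and lower in 2 (1 without sham-sEV library 1), with Aars 2.29-fold higher.

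Sod2, the mitochondrial superoxide dismutase and an NF-kappaB target, had 584, 616 and 589.8 TPM in the sham-sEV libraries, against 46.5, 44.5, 40.3 and 48.2 TPM in the PBS libraries. Prdx5 and Gsr were 4.99-fold and 3.08-fold higher, while Nfe2l2 (NRF2) fell 1.88-fold and Hmox1, its target, was not called at 1354 ± 30.8 TPM in sham-sEV and 1292 ± 86.9 TPM in PBS cultures. Of the 24 members of the antioxidant list 6 were higher (25%) and 10 lower (41.7%) in TPM, beside 16.5% and 52.5% of all genes tested, and 11 and 8 with median-of-ratios scaling. Of 21 metallothionein, zinc and iron genes 6 were higher (28.6%) and 10 lower (47.6%), and 10 and 9 with median-of-ratios scaling. The heavy ferritin chain Fth1 had 28963 ± 676 TPM with sham sEVs against 10459 ± 718 TPM with PBS, the light chain Ftl1 7086 ± 257 TPM with sham sEVs against 10586 ± 928 TPM with PBS, and the exporter Slc40a1 fell 6.10-fold. Ferritin pseudogenes are many, so reads of both chains may be divided. Of 9 genes of the NADPH oxidase list 5 were higher and 3 lower, and 7 and 1 with that scaling. The subunits Cybb and Ncf1 and their activator Rac2 rose 3.10-fold, 2.31-fold and 4.29-fold. The BCL2 family and cell death list held 8 higher (34.8%) and 10 lower (43.5%) of 23, beside 16.5% and 52.5% of all genes. Its median log2 fold change was -0.10. With median-of-ratios scaling 12 were higher and 8 lower, beside 31.9% and 30.9% of all genes. The survival gene Bcl2a1a, a copy among near-identical genes, had 656 ± 8.22 TPM with sham sEVs against 114 ± 13.3 TPM with PBS, and Birc3 was 5.78-fold higher.

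For the respiratory chain, glycolysis and citric acid cycle lists the balance of higher and lower members changed with the scaling. Respiratory chain genes were higher in 6 and lower in 13 of 38 in TPM and in 23 and 0 with median-of-ratios scaling, and glycolysis genes in 6 and 7 of 26 and in 18 and 6. Without sham-sEV library 2, 8 respiratory chain genes were lower. Of 20 citric acid cycle genes 4 were higher and 7 lower in TPM, and 11 and 5 with median-of-ratios scaling. The shares of all genes changed too, from 16.5% higher and 52.5% lower in TPM to 31.9% and 30.9% with median-of-ratios scaling. Single genes stood out: Hk2, an inducible hexokinase, rose 4.57-fold and Hif1a, the hypoxia factor, 1.99-fold, while Idh2 fell 1.84-fold. Cytosolic ribosomal protein genes were lower in 43 of 45, by a median of -0.46, in 17 with median-of-ratios scaling and in 40 with quantile normalization, with none higher under these 3 scalings. Ribosomal protein pseudogenes may take part of their reads.

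Lysosomal genes were lower as a group under each scaling, 30 of 38 in TPM, 25 with median-of-ratios scaling and 31 with quantile normalization. Ctsd, cathepsin D, had 9692, 9259 and 9803 TPM in the sham-sEV libraries, against 25257, 24803, 25281 and 24583 TPM in the PBS libraries, 2.61-fold lower (log2 -1.38 ± 0.0450 (SE)). Ctsb fell 2.31-fold and Hexa 3.29-fold. Ctsc, which activates granule proteases, went against them at 293 ± 19.9 TPM with sham sEVs against 71.2 ± 4.67 TPM with PBS. In the lipid efflux and storage list 4 of 27 were higher (14.8%) and 15 lower (55.6%), the lower share near the 52.5% of all genes. With median-of-ratios scaling 10 were higher and 11 lower. Among lipid handling genes Lpl, lipoprotein lipase, fell 3.89-fold, Lipa, the lysosomal lipase, 3.26-fold, and Plin2, which coats lipid droplets, 4.42-fold. The cholesterol exporter Abcg1 rose 1.54-fold. Cd9 and Cd63, tetraspanins that mark vesicles, were lower, Cd63 at 260.5 ± 10.3 TPM with sham sEVs against 555 ± 41.6 TPM with PBS. Their list of endocytosis, vesicle-sorting and tetraspanin genes did not fall as a whole. Of 32 tested 6 were higher (18.8%) and 13 lower (40.6%), beside 16.5% and 52.5% of all genes tested. With median-of-ratios scaling 15 were higher and 12 lower. Of autophagy genes 18 of 24 were lower (13 with median-of-ratios scaling), and the cargo receptor Sqstm1 rose 1.79-fold. Rgs2 and Rasgrp3, regulators of G-protein and Ras signalling, fell 26-fold and 25.8-fold.

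Some genes went between near absence and expression. Under 0.5 TPM in every PBS library and at least 5 TPM in every sham-sEV library stood 34 genes, 8 of them predicted genes. Beside Il6, Nos2, Oasl1, Adora2a, Il10, Il12b, Csf3 and Serpinb2 they include Slfn1, with 14.1 ± 2.71 TPM with sham sEVs against 0.0364 ± 0.0447 TPM with PBS, and Vnn3, a pantetheinase, with 11.4 ± 1.60 TPM with sham sEVs against 0.0176 ± 0.0203 TPM with PBS. Slfn1 belongs to a family of close copies. In the reverse direction stood 14 genes, among them Slco2b1, an organic anion transporter, with 0.0267 ± 0.0135 TPM with sham sEVs against 14.8 ± 1.83 TPM with PBS, Asb10, with 0.312 ± 0.142 TPM with sham sEVs against 23.5 ± 4.25 TPM with PBS, Tox2, with 0.296 ± 0.0466 TPM with sham sEVs against 17.9 ± 1.60 TPM with PBS, and the cell cycle genes Spc24, Cdkn3, Troap, Kif4 and E2f2.

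Some of the changed genes were neighbours on the chromosomes. Of the genes tested, 11263 protein-coding genes were placed by GENCODE vM21 on GRCm38. Runs of at least 3 neighbours, each called and at least 2-fold changed the same way, numbered 38 with 146 of the 602 such higher genes, and 24 with 77 of the 1271 such lower genes. The number of runs that genes placed without regard to their change would form was not computed. Several of the higher runs hold members of 1 gene family. On chromosome 19, 6 Ifit genes from Ifit2 to Ifit1 lie at chr19:34550694-34650009, with log2 fold changes from 2.82 to 5.03. On chromosome 5, Cxcl5, Pf4, Cxcl3, Cxcl1 and Cxcl2 lie at chr5:90759360-90905938, with 1.22 to 4.81, and on chromosome 3, Gbp5, Gbp7, Gbp3, Gbp2b and Gbp2 at chr3:142493978-142638008, with 2.73 to 4.88. On chromosome 11, Ccl2, Ccl7, Ccl12 and Ccl8 lie at chr11:82035571-82116799, with 1.02 to 3.42. On chromosome 19, 7 Ms4a genes from Ms4a7 to Ms4a6d, tetraspan membrane proteins, lie at chr19:11321039-11604849, with 1.36 to 4.49. Lower runs held at most 4 genes, such as Ctsd, Syt8, Tnni2 and Lsp1 at chr7:142375911-142494867, with -5.09 to -1.24. Neighbours of a family can share reads, and the runs were found after the values were seen.

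**Figure D4:**
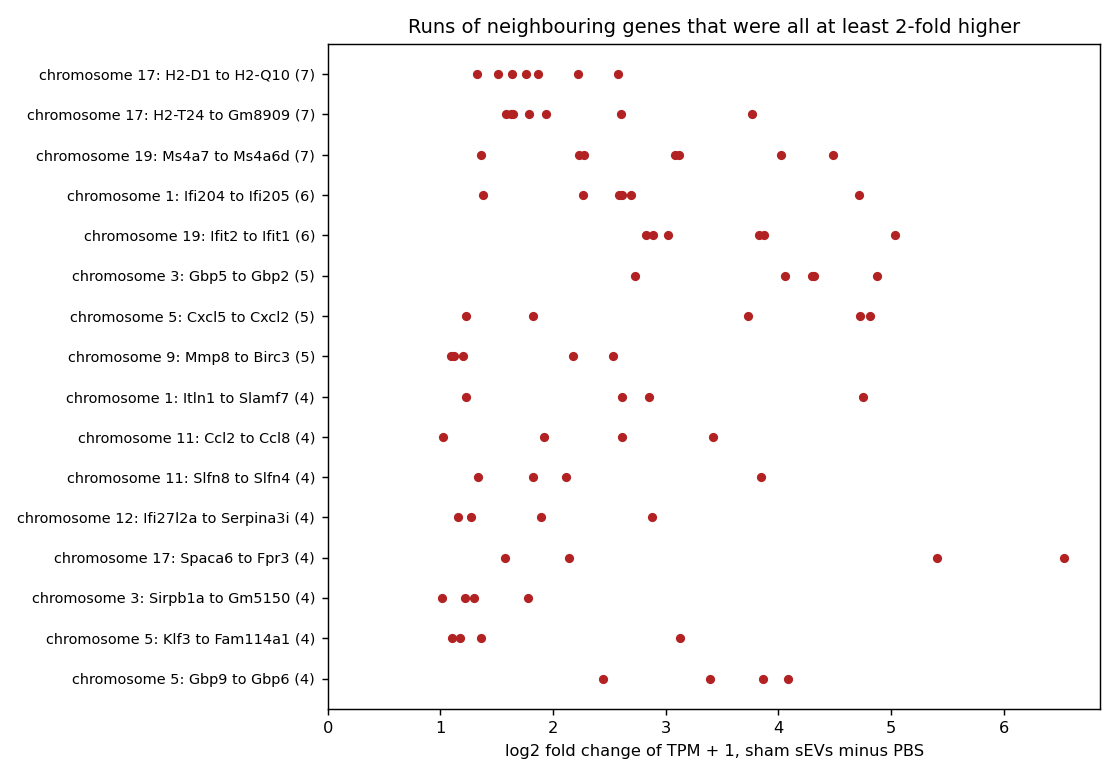
Log2 fold change of TPM + 1, sham sEVs minus PBS, for each gene of the 16 runs of at least 4 neighbouring protein-coding genes that were all called and at least 2-fold higher, 1 row per run with its chromosome, its first and last gene and the number of genes. All points lie at 1 or above by this choice, and the Fpr run reaches 6.53.

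Promoters were read in windows from 250 bases before to 50 after each annotated start, from RefSeq on GRCm38.p6, which held a window for 9682 of the 14806 genes tested. Both strands were searched, overlapping matches included, for kB letters (GGGA, any base, TT, any base, CC), ISRE letters (GAAA, any 2 bases, GAAA), the STAT letters TTCCNGGAA (GAS) and the E2F letters TTTCCCGC, TTTCGCGC, TTTGCCGC and TTTGGCGC. Over all genes with a window, 1.64% held the kB letters, 3.98% the ISRE letters, 1.48% the GAS letters and 4.91% E2F letters. Among the 224 with a window of the genes at least 4-fold higher, these shares were 5.36%, 20.1%, 2.23% and 1.34%. Among the 243 at least 4-fold lower, they were 2.06%, 3.29%, 1.23% and 9.47%. The ISRE letters stood in 13 of 25 antiviral effectors with a window (52.0%) and in 10 of 11 guanylate-binding proteins and immunity-related GTPases (90.9%). The kB letters stood in 10 of 20 genes of the NF-kappaB list (50.0%) and in 4 of 9 CXC and CX3C chemokines (44.4%). Of 6 CC chemokines with a window 0 held kB letters and 0 held ISRE letters. The E2F letters stood in 10 of 24 DNA replication genes (41.7%), but in 1 of 24 mitosis genes (4.17%). A match describes these letters and is not a binding site, and the groups of genes were chosen by their change.

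The 4 windows below show such matches where the genes are among those described above: Il6 for kB alone, Cxcl10 and Gbp5 for kB and ISRE, and Mcm6, a replicative helicase subunit, for E2F. They give the 250 bases before the annotated start, 5′ to 3′ on the gene's strand, with matches in capitals. The Il6 window is chr5:30012864-30013113 on the plus strand, with the kB letters from -44. The Cxcl10 window is chr5:92348890-92349139 on the minus strand, with the ISRE letters from -213 and the kB letters from -103. The Gbp5 window is chr3:142496684-142496933 on the plus strand, with the ISRE letters from -165 and the kB letters from -77. It precedes the RefSeq start and lies inside the gene as GENCODE places it, from chr3:142493978. The Mcm6 window is chr1:128359706-128359955 on the minus strand, with E2F letters from -110, -106 and -47.
Il6: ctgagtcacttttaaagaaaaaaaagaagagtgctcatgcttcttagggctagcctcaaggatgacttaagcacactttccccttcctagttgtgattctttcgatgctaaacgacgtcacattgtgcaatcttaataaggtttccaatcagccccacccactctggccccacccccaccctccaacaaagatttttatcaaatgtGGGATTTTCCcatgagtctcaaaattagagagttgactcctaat
Cxcl10: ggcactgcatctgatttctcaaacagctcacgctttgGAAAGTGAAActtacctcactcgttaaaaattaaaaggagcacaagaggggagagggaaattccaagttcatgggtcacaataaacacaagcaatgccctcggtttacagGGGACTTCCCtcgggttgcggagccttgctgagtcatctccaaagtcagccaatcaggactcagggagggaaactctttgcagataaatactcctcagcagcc
Gbp5: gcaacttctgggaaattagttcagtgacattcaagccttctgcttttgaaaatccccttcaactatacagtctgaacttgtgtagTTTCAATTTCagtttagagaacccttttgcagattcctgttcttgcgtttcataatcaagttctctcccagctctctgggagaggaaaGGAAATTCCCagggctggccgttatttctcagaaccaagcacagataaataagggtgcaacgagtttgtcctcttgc
Mcm6: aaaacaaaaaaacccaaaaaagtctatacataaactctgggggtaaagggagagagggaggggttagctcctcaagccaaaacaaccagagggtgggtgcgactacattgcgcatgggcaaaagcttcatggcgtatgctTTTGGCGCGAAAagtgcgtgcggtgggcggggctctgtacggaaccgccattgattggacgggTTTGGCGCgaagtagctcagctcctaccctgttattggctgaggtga

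**Figure D5:**
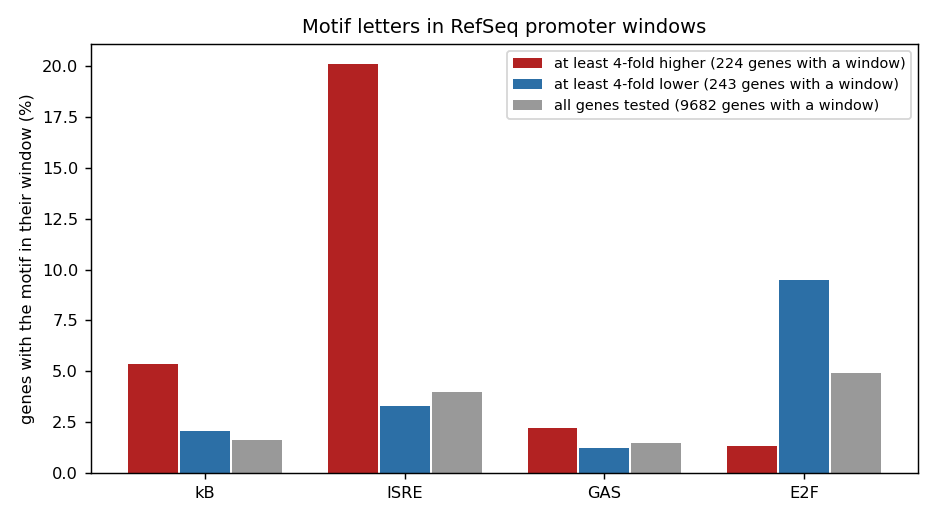
Share of genes, in percent, whose RefSeq promoter window holds the kB, ISRE, GAS or E2F letters, for genes at least 4-fold higher with sham sEVs (224 with a window, red), at least 4-fold lower (243, blue) and all genes tested (9682, grey). The ISRE share is 20.1% among higher genes and the E2F share 9.47% among lower genes.

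Mcm6 itself fell, with 23, 22.4 and 22.4 TPM in the sham-sEV libraries, against 90.3, 104, 106 and 103 TPM in the PBS libraries. It is named for its promoter, after its values were seen.

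The SNI-sEV cultures give the values of another serum vesicle at the same dose and time. They share the PBS libraries with the sham-sEV comparison, so the 3 groups are given side by side. Ccl5 averaged 18328 ± 784 TPM with sham sEVs, 501 ± 79.1 TPM with SNI sEVs and 22.6 ± 6.73 TPM with PBS, Marco 4903 ± 330.5 TPM with sham sEVs, 135 ± 15.5 TPM with SNI sEVs and 16.0 ± 4.88 TPM with PBS and Irf7 1098 ± 38.8 TPM with sham sEVs, 129 ± 16.1 TPM with SNI sEVs and 24.3 ± 7.56 TPM with PBS. Sham sEVs differed from SNI sEVs at each of the 3 genes, by log2 5.20, 5.18 and 3.09 (limma's adjusted p = 3.2e-09, 7.9e-10 and 5.3e-08). Il6 averaged 115 ± 7.38 TPM with sham sEVs, 0.0682 ± 0.0262 TPM with SNI sEVs and 0.0672 ± 0.0742 TPM with PBS, and Ptgs2 64.9 ± 6.85 TPM with sham sEVs, 0.902 ± 0.154 TPM with SNI sEVs and 0.851 ± 0.202 TPM with PBS, so the SNI-sEV values lay by the PBS values for both. Isg15 averaged 641 ± 44.1 TPM with sham sEVs, 104 ± 14.6 TPM with SNI sEVs and 25.5 ± 8.84 TPM with PBS. Among genes lower with sham sEVs, Trem2 averaged 65.9 ± 7.26 TPM with sham sEVs, 1181 ± 21.0 TPM with SNI sEVs and 1422 ± 144 TPM with PBS and Mki67 2.48 ± 0.225 TPM with sham sEVs, 42.9 ± 2.57 TPM with SNI sEVs and 48.6 ± 10.8 TPM with PBS, and sham sEVs differed from SNI sEVs by log2 -4.15 and -3.66 (limma's adjusted p = 4.3e-11 and 5.6e-09). Over all genes tested 65.6% differed between the 2 vesicle groups.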

How the data were processed

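The 10 libraries were made with a stranded kit from polyadenylated RNA, per the labels' protocols. Tools named in the submitters' processing notes are bcl2fastq, BWA, Subread and featureCounts 2.0.2, with the mm10 build, without role or order; the treatment of reads that match several copies is not given in the sources used here. The authors deposited TPM, which sum to 1000000 per library and keep no read totals, so no count test, counting interval or detection limit was computed. The authors' deposited table of changed genes, per the file headers, holds for each comparison a score (the linear fold, with falls written as negative) and a false discovery rate, which is an adjusted p-value. Its test is not stated. Where a gene of that table was tested here, 2285 in all, its fold for sham against control lay within 1% of the fold on TPM + 1.

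Log2(TPM + 1) of the 14806 genes averaging at least 1 TPM over the 10 libraries was fitted with limma 3.58.1 in R 4.3.3, with 1 mean for each of the 3 groups, a shared spread and eBayes with a trend. Tests were two-sided with Benjamini-Hochberg adjustment over all genes tested and a threshold of 0.05. In a test on simulated data, made for sham sEVs against PBS on these 14806 genes, 85.1%, 97.0% and 98.5% of genes changed 1.5-, 2- and 4-fold were recovered, and 5 unchanged genes were called. Only 67, 67 and 66 genes were changed, in random directions, with the same spread in all groups and no shift of the other genes. The real groups differed in spread and in the median of all genes, so the test cannot give the rate of false calls in the real data.

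The comparison, its 66 gene lists (1314 symbols, 1137 tested) and the genes named were chosen with earlier results of these data known. Named genes are the 25 largest rises and falls among called genes that average at least 2 TPM and whose groups do not overlap, up to 6 called and 2 uncalled members per list, members that go against their list, the 15 most abundant genes per group, and genes near 0 in one group only. Predicted genes, pseudogenes and small RNAs (3492 tested, 537 higher and 1508 lower) are counted and not named. Some genes of the lists are counted but not reported here by name. Defining markers below the filter and Mcm6 were named after their values were seen. Coordinates come from GENCODE vM21, in which 13938 of the genes tested matched 1 gene.

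The alternatives tried changed the pseudocount (0.5 or 0.1), the filter (none, or 5 TPM on average), the scaling (quantile or median-of-ratios), the spread estimate (robust), the weights of libraries, and the libraries fitted (without SNI sEVs, or with 1 left out at a time). A block by replicate number was also fitted. Leaving out pseudogenes and predicted genes, or the 20 highest genes in the scaling, was added after seeing the data.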

Additional observations from a re-analysis of the deposited data

Results flagged for a closer look

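For 218 values of the PBS group (genes named with values and sums of marker lists), the highest or lowest of the 4 libraries was checked for a gap to the others. Of these, 14 (6.42%) had a library far from the others, beside about 1 in 20 by chance. Groups of 3 libraries were not checked.

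PBS library 2 stood above the other PBS libraries at 6 interferon-induced genes. It had 12.2 TPM of Ifit1, against 5.15 to 5.31 TPM in the other PBS libraries, 35.4 TPM of Irf7 against 19.6 to 22.2, and 31.1 TPM of Usp18 against 14.9 to 17.1. It also had 5.98 TPM of Oas3 against 2.23 to 2.67, 10.1 TPM of Zbp1 against 6.37 to 6.70, and 6.27 TPM of Gbp2 against 4.21 to 4.39. All 3 sham-sEV libraries lay above PBS library 2 at each of these genes. Without it, the log2 fold change of Irf7 was 5.68, beside 5.48 with it, and that of Ifit1 5.30, beside 5.03.

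PBS library 1 stood apart at 6 other genes. It was lowest for Ifnar1 (64.7 TPM, against 83.1 to 84.6 in the other PBS libraries), Itgam (520.8 against 657 to 673), Rasgrp3 (157 against 210.0 to 216) and Tgfbr1 (40.8 against 60.6 to 63.4). Serpinb2 was listed at 0 there and at 0.0282 to 0.0322 TPM in the others. It was highest for Tnfsf12, at 68.9 TPM against 62.7 to 63.0. Without it 8664 genes were lower with sham sEVs, beside 7768 with it.

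PBS library 4 had 0.316 TPM of Il12b, against 0 to 0.0460 in the other PBS libraries, and its neuronal markers summed to 33.4 TPM, against 23 to 24.0.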

How the results depend on the processing

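With median-of-ratios scaling the genes higher and lower with sham sEVs numbered 4728 and 4579, and with quantile normalization 4307 and 4883, beside 2437 and 7768 in deposited TPM. The other alternatives left both counts within 1.5 times. Leaving out 1 library gave 2167 to 2487 higher and 7095 to 8664 lower. The replicate number as a block gave 2503 and 7528. Same-numbered sham-sEV and PBS libraries did not deviate together (correlations over genes from -0.0176 to 0.0512), so the numbers were not taken as pairing, and no sham-sEV library correlated best with the PBS library of its own number. Of 203 called genes named with values, 201 kept sign and call under every alternative that tested them (the 2 added after seeing the data were run for the counts of all genes alone), and the exceptions were Ddit4 and Rela. Signs reversed with median-of-ratios scaling for Rela (0.06), Lyz2 (0.19) and Tmem119 (0.07) and with quantile normalization for Ddit4 (0.08), Cd14 (-0.04) and Tmem119 (0.16). Lyz2, Tmem119 and Cd14 were not called in deposited TPM. The differences from SNI sEVs of Ccl5, Marco, Irf7, Trem2 and Mki67 kept sign and call under both scalings. Of 132 list counts, 33 moved by over 1.5 times with median-of-ratios scaling, 22 with quantile normalization, 15 with a mean of at least 5 TPM and 12 without a filter. The 2 scalings move the median of all genes from -0.25 to about 0, and the other causes were not tested.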
